A study of Mus musculus with 9 samples.

Results

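The 10 genes described here are core genes of transforming growth factor beta (TGF-β) signalling: the ligands Tgfb1, Tgfb2 and Tgfb3, the latent-ligand activator Thbs1, the receptors Tgfbr1 and Tgfbr2, the SMAD proteins Smad3 and Smad7, the SMAD corepressor Skil and the extracellular matrix protein Tgfbi. They were chosen by name for their place in the pathway, with earlier results of these data known, and matched to the table by gene symbol. All 10 had a row among the 45535 rows with a symbol, and all 10 were among the 18202 genes tested. The samples were preparations of CD103+ dendritic cells from lungs of C57/BL6j mice given bleomycin for 7 days, a drug used to model lung fibrosis. Cells were released with collagenase and pulled out on magnetic beads against the integrin CD103. The 5 samples before culture were lysed directly, and the 4 samples after culture had spent 18 h ex vivo in RPMI with 10% FBS and 1% pen/strep. All 9 samples therefore come from bleomycin-treated mice, and no untreated mouse is used here.

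TGF-β ligands are secreted in a latent form, held by their own propeptide, and are released by integrins, proteases or the matrix protein thrombospondin-1. The active dimer binds the type II receptor, which phosphorylates the type I receptor, and this in turn phosphorylates SMAD2 and SMAD3, which enter the nucleus with SMAD4. SMAD7 and SnoN (Skil) are both induced by the pathway and inhibit it, and in the lung TGF-β is best known as a driver of fibrosis and, in dendritic cells, as an inducer of CD103.

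Tgfbr1 and Tgfbr2 changed in opposite directions, though not after a correction for GC content and exon length. The sequences upstream of these receptor genes and of Tgfb1, the ligand gene with the highest level here, are printed for comparison. Each is the 250 bases before a RefSeq start site in GRCm38.p6, read 5′ to 3′ on the gene's strand, with motif letters in capitals. The Tgfb1 window lies at chr7:25686752-25687001 on the plus strand, that of Tgfbr1 at chr4:47352972-47353221 on the plus strand and that of Tgfbr2 at chr9:116175364-116175613 on the minus strand.
Tgfb1: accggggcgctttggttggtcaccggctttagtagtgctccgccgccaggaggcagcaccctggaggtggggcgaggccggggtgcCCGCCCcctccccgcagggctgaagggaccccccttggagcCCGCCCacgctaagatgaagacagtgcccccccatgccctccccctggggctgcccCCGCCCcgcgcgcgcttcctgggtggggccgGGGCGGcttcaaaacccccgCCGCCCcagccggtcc
Tgfbr1: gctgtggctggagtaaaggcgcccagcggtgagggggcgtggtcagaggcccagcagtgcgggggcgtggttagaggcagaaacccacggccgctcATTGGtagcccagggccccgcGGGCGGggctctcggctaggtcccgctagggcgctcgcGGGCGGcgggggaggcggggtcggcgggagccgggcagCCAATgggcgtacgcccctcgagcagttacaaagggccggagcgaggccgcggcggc
Tgfbr2: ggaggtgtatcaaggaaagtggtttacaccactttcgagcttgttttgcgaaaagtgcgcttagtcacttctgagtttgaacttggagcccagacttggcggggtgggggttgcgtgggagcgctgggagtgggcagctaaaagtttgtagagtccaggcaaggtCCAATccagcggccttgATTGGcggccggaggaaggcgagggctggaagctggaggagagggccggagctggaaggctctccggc
The letters searched on both strands were the SMAD palindrome GTCTAGAC, the SMAD element CAGACA, the AP-1 site TGANTCA, the cyclic AMP response element TGACGTCA, the SP1 box GGGCGG, the CCAAT box CCAAT and the TATA box TATAAA. No 2 of these motifs overlap in the 3 windows. The Tgfb1 window held 5 SP1 boxes and no other motif searched, with a GC content of 75.2%. The Tgfbr1 window held 2 SP1 boxes and 2 CCAAT boxes at 74.8% GC, and the Tgfbr2 window held 2 CCAAT boxes at 58.4% GC, against a median of 52.4% GC over all 32851 promoter windows. An SP1 box is present in 32.7% of those windows and a CCAAT box in 33.8%. SMAD elements occur in 17.1% and the SMAD palindrome in 0.167%, and neither is in the 3 windows printed. AP-1 sites, present in 6.75% of all windows, cyclic AMP response elements, present in 1.55%, and TATA boxes, present in 12.4%, were likewise not found in them. Of the 10 genes, 6 have a promoter entry. A SMAD element was found once upstream of Tgfb2, beside 1 CCAAT box and 1 TATA box, and once upstream of a second Tgfbr1 start site, while Smad3 held 2 SP1 boxes and Tgfbi 1.

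Depth in rows with a symbol ran from 14.7 to 35.3 M reads per sample, and the least abundant of the 10 genes, Tgfb2, was still covered by 49 to 203 reads. Values are normalized read counts, which are gene counts divided by 1 size factor per sample. The groups stood far apart on the first principal component, which held 81.7% of the variance. On the second, replicate 4 before culture (−39.4) and replicates 2 (35.3) and 3 (−38.0) after culture lay outside the range of the other 6 samples (−1.06 to 18.0). The labelled cell type was present before culture: Itgae, which encodes CD103, was at 18138 ± 1537 (SD, n = 5), and the cDC1 markers Xcr1 and Clec9a at 5836 ± 781 and 2756 ± 286. After culture these were at 1727 ± 335, 114 ± 32.5 and 315 ± 27.8 (SD, n = 4), and 8 of 9 cDC1 markers were lower. In bulk RNA, fewer cells that express a gene and less of its RNA per cell cannot be told apart. The labels do not say whether samples came from separate animals, so p-values measure the spread between these samples only.

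Of the 10 genes, 6 were lower after culture, 1 was higher and 3 did not pass the test, which was limma's moderated test at a Benjamini-Hochberg adjusted p under 0.05 over all genes tested. Over all tested genes, 68.8% changed, with 34.2% higher and 34.6% lower, so 7 of 10 changed genes is close to the background share. The median log2 fold change of the 10 genes, after minus before culture, was −0.62 against 0.0065 over all tested genes. Its size, a median absolute log2 change of 0.62, was near the 0.64 of all tested genes. In 7 of the 10 genes the groups did not overlap, as was the case for 57.3% of all tested genes. Without the 3 samples that stood apart on the second component, 7 were lower and 1 higher, with Thbs1 the gene added.

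**Figure D1:**
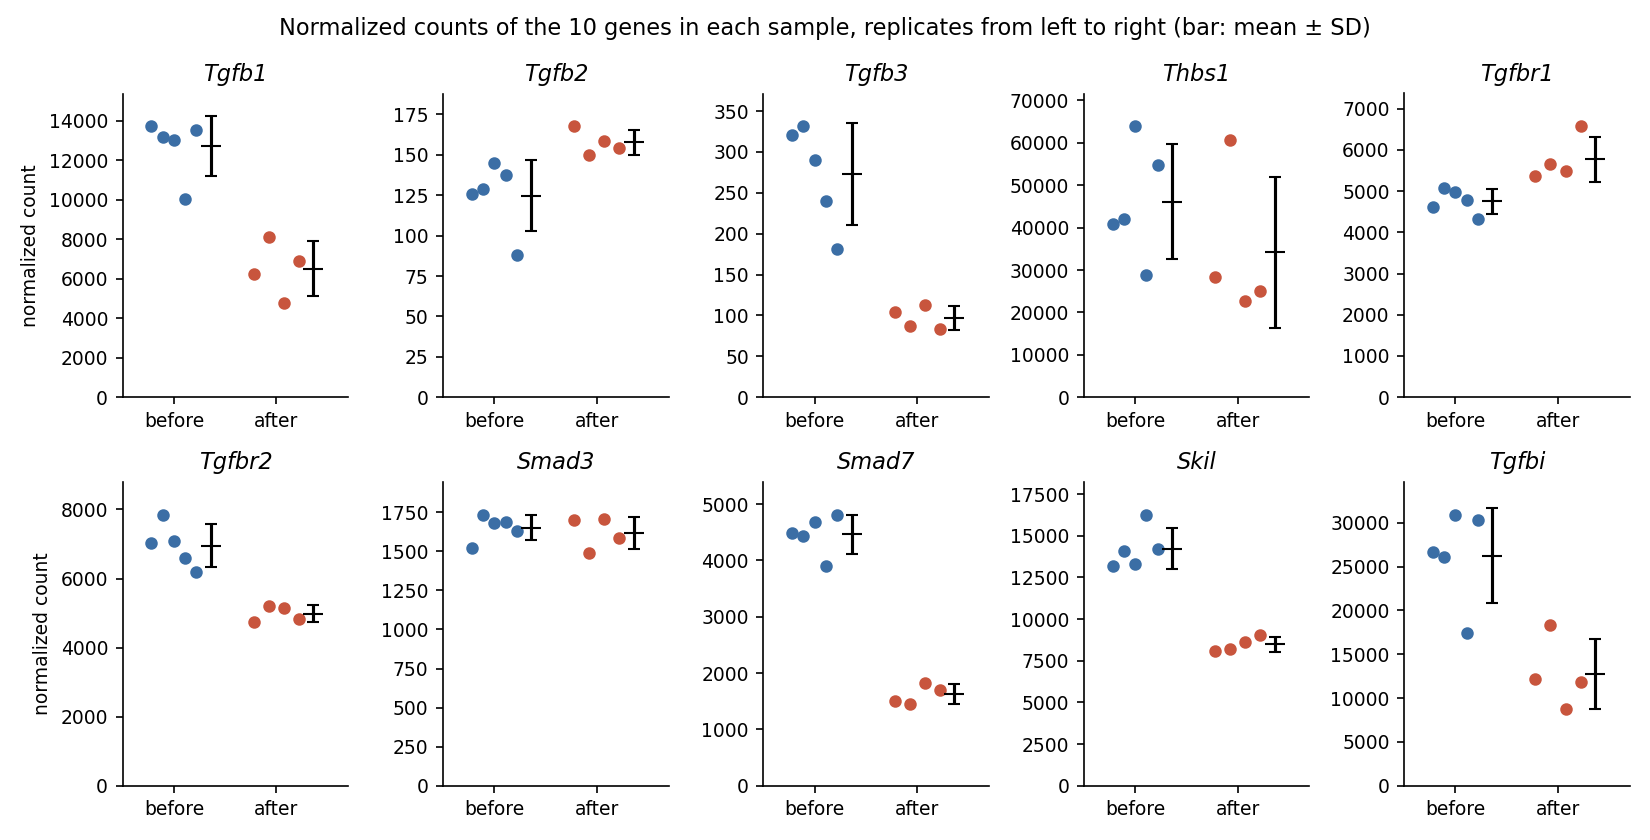
Normalized read count (vertical axis, from 0) of each of the 10 genes in every sample, with the 5 samples before culture in blue, the 4 after culture in red, and black bars for the mean ± SD. Smad7, Tgfb1, Tgfb3, Skil and Tgfbr2 lie lower in every sample after culture, Tgfbr1 and Tgfb2 higher in every sample, and the values of Thbs1, Smad3 and Tgfbi overlap between groups.

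Tgfb1 encodes TGF-β1, the main isoform made by immune cells, and lies at chr7:25687002-25705077 (GRCm38, plus strand). Its normalized counts before culture were 13726, 13189, 13026, 10035 and 13527 in replicates 1 to 5, and after culture 6249, 8127, 4786 and 6870 in replicates 1 to 4. Every sample after culture was lower than every sample before, although replicate 4 before culture was well below the other 4. The mean fell from 12701 ± 1515 (SD, n = 5) to 6508 ± 1389 (SD, n = 4), or to 51.2% of the level before, and the log2 change was −0.98 ± 0.137 (SE), at a limma adjusted p of 2.63e-05. 

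Tgfb3 encodes TGF-β3, an isoform best known from palate and lung development, and lies at chr12:86056745-86079041 on the minus strand. Normalized counts were 321, 332, 291, 240 and 181 before culture and 104, 87.2, 113 and 82.9 after. All 4 samples after culture were lower than the lowest before. The level after was 35.5% of that before, and the log2 change of −1.46 ± 0.181 (SE), at a limma adjusted p of 8.53e-06, was the largest fall of the 10 genes together with that of Smad7. Exons of Gm37804 lie antisense to it, with mean counts of 4.36 before and 1.06 after culture. Strand use in counting is not given, so reads of the antisense gene cannot be told apart from its own.

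Tgfb2, the isoform of epithelium and mesenchyme, had the lowest level per kb of the 3 ligand genes before culture, while after culture its range overlapped that of Tgfb3. It lies at chr1:186622792-186705989 on the minus strand, and the antisense gene Gm29491, at a mean of 2.45 before and 6.11 after culture, overlaps its exons. Normalized counts were 125.7, 128.7, 144.7, 137.3 and 87.7 before and 167.8, 150.1, 158.3 and 154.3 after culture. The groups did not overlap, yet the gap between the highest sample before and the lowest after was small. The log2 fold change of 0.35 (SE 0.154, 95% confidence interval 0.02 to 0.69) missed the threshold at a limma adjusted p of 0.0555. Its adjusted p ran from 0.00373 to 0.442 over the 15 alternatives, 4 of which put it under the threshold.

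Per kilobase of exon, TGF-β1 made up nearly all of the ligand message in both groups. Its share of the summed normalized count per kb of the 3 ligands was 96.1% ± 0.825 before (SD, n = 5) and 95.7% ± 1.28 after it (SD, n = 4), with overlapping ranges. The share of Tgfb3 was 3.09% ± 0.658 before and 2.24% ± 0.792 after, also with overlap. That of Tgfb2 was 0.838% ± 0.216 before and 2.10% ± 0.492 after, without overlap (0.550 to 1.14% against 1.56 to 2.71%). These shares were not tested.

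Thbs1 encodes thrombospondin-1, a matrix protein that can free TGF-β1 from its propeptide, and lies at chr2:118111876-118127133 on the plus strand. Its normalized counts were 40864, 42037, 63964, 28844 and 54709 before culture and 28336, 60730, 22587 and 25138 after. Replicate 2 after culture was higher than 4 of the 5 samples before, whereas the other 3 samples after culture were below all 5. The log2 fold change was −0.50 (SE 0.274, 95% confidence interval −1.09 to 0.09, limma adjusted p = 0.120). Without replicate 2 after culture it was −0.82 (limma adjusted p = 0.00318), and without replicate 4 before culture −0.66 (limma adjusted p = 0.0388). Omitting all 3 samples that stood apart gave −0.89 (limma adjusted p = 2.18e-04). The adjusted p ran from 2.18e-04 to 0.295 over the 15 alternatives. Sample weights in limma, with none of the 9 samples left out, gave −0.63 (adjusted p = 0.0183), and a block by library number, which drops replicate 2 before culture, gave −0.52 (adjusted p = 0.00369). The call for Thbs1 therefore depended both on the samples included and on the model. Gm29233, antisense to Thbs1, was at a mean of 15.5 before and 1.39 after culture, far under the level of Thbs1.

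The receptor genes changed in opposite directions, except after the GC and length correction given below. Tgfbr2, at chr9:116084293-116175360 on the minus strand, encodes the type II receptor that binds the ligand first. Its normalized counts were 7023, 7853, 7094, 6604 and 6197 before culture and 4730, 5212, 5153 and 4840 after. All 4 samples after culture were lower than all 5 before, and the SD after culture was small (4984 ± 235, n = 4, against 6954 ± 618, n = 5). Tgfbr2 fell to 71.7% of its level before (log2 fold change −0.48, SE 0.078, limma adjusted p = 1.02e-04).

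Tgfbr1, at chr4:47353222-47414931 on the plus strand, encodes the type I receptor kinase ALK5, which phosphorylates SMAD2 and SMAD3. Its normalized counts were 4607, 5066, 4977, 4776 and 4325 before culture and 5361, 5661, 5494 and 6581 after. The groups did not overlap, and replicate 4 after culture was the highest. Tgfbr1 rose by 0.28 ± 0.079 (SE) on the log2 scale, at a limma adjusted p of 0.00647, the one member called higher. This direction turned when each sample was corrected for its smooth trend over GC content and exon length: the log2 fold change became −0.15 (limma adjusted p = 0.0842, with a range of 0.00166 to 0.134 over the 15 alternatives). The longest transcripts of Tgfbr1 and Skil had the lowest GC content of the 10 genes, at 41.0% each, against 46.9% to 56.9% for the other 8.

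Because both receptor genes were measured in the same library, their ratio does not depend on the size factor. The log2 ratio of Tgfbr1 over Tgfbr2 in normalized counts was −0.61, −0.63, −0.51, −0.47 and −0.52 before culture and 0.18, 0.12, 0.09 and 0.44 after. The sign differed between the groups in all 9 samples. The mean ratio rose from −0.55 ± 0.070 (SD, n = 5) to 0.21 ± 0.161 (SD, n = 4), a difference of 0.76 with an exact two-sided permutation p of 0.0159, the smallest that 5 samples against 4 allow, and 0.0238 adjusted over the 3 ratios compared. Each gene alone already separated the groups, in opposite directions, so this p of 0.0159 was fixed beforehand and adds no support to the single-gene results. After the GC and length correction the difference was 0.21 (exact permutation p = 0.0635).

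**Figure D2:**
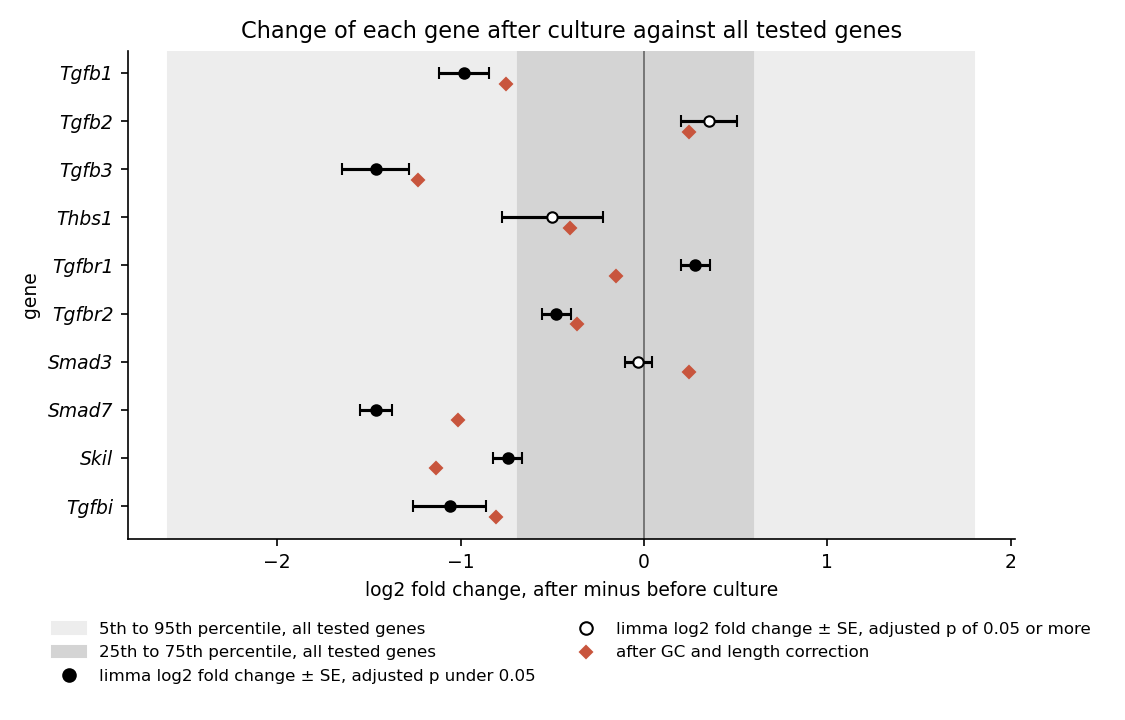
Log2 fold change after minus before culture (horizontal axis) of each of the 10 genes, with filled circles for a limma adjusted p under 0.05, open circles for the rest, bars for ± SE, and diamonds for the change after the GC and length correction. Grey bands span the middle 50% and 90% of all tested genes; only Tgfbr1 and Smad3 change side of 0 with the correction.

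Smad7 encodes the inhibitory SMAD that blocks the type I receptor and recruits ubiquitin ligases to it, and it is itself a direct target gene of the pathway. Normalized counts were 4489, 4435, 4677, 3899 and 4815 before culture and 1503, 1452, 1832 and 1705 after. The lowest sample before culture, at 3899, was far above the highest after, at 1832. The mean fell from 4463 ± 350 (SD, n = 5) to 1623 ± 177 (SD, n = 4). Its log2 change was −1.46 ± 0.087 (SE), with the smallest limma adjusted p of the 10 genes, 6.42e-09. 

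Smad3 encodes the receptor-activated SMAD that binds DNA, and lies at chr9:63646767-63757994 on the minus strand. Its normalized counts were 1524, 1736, 1684, 1692 and 1629 before culture and 1699, 1490, 1706 and 1584 after. The groups lay on top of each other. The log2 fold change was −0.03 (SE 0.071, 95% confidence interval −0.18 to 0.12, limma adjusted p = 0.726), and it was 0.25 (limma adjusted p = 0.0172) after the GC and length correction. Smad2, its partner, was at 1373 ± 86.6 before and 1537 ± 123 after culture (log2 fold change 0.16, limma adjusted p = 0.0813), and the shared partner Smad4 at 2946 ± 112 and 2802 ± 164 (−0.07, limma adjusted p = 0.340).

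The ratio of message of 1 inhibitory SMAD, Smad7, to that of 1 activating SMAD, Smad3, taken within each sample, differed between the groups. The log2 ratio of Smad7 over Smad3 was 1.56, 1.35, 1.47, 1.20 and 1.56 before culture and −0.18, −0.04, 0.10 and 0.11 after. Before culture Smad7 counts were well above those of Smad3 in every sample, and after culture the 2 genes had nearly equal counts. Per kb of exon, Smad7 (359) was still above Smad3 (292) after culture, without overlap. The difference between groups was −1.43 (exact two-sided permutation p = 0.0159, adjusted 0.0238). Smad7 alone already separated the groups while Smad3 overlapped, so this p adds no support beyond the Smad7 result. The log2 ratio of Smad2 over Smad3 was −0.27 ± 0.131 before and −0.08 ± 0.205 after, with overlap (exact permutation p = 0.143), and this difference of 0.19 was −0.27 after the GC and length correction.

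Skil encodes SnoN, a corepressor that binds SMAD complexes at their target genes and is degraded and then re-induced on signalling. It lies at chr3:31095058-31122577 on the plus strand. Normalized counts were 13191, 14101, 13293, 16270 and 14198 before culture and 8073, 8213, 8597 and 9019 after. Every sample after culture was below every sample before, with replicate 4 before culture the highest. Skil fell to 59.6% of its level before (log2 fold change −0.74, SE 0.079, limma adjusted p = 1.97e-06). With the GC and length correction the log2 fold change was −1.13.

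Tgfbi encodes a secreted matrix protein that binds integrins and collagens and was named for its induction by TGF-β. It lies at chr13:56609523-56639562 on the plus strand. Normalized counts were 26637, 26046, 30929, 17365 and 30271 before culture and 12115, 18340, 8785 and 11882 after. Replicate 4 before culture was lower than replicate 2 after culture, so the groups overlapped by 1 sample on each side. The mean fell from 26249 ± 5413 (SD, n = 5) to 12780 ± 4005 (SD, n = 4), and the log2 change was −1.06 ± 0.198 (SE), at a limma adjusted p of 3.27e-04.

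Levels of different genes were compared as normalized count per kb of exon. Before culture the order was Thbs1 (7588), Tgfbi (6961), Tgfb1 (2519), Skil (1466), Smad7 (987), Tgfbr2 (849), Tgfbr1 (727), Smad3 (298), Tgfb3 (80.6) and Tgfb2 (21.6). The ranges of neighbours overlapped for Thbs1 and Tgfbi, for Smad7 and Tgfbr2, and for Tgfbr2 and Tgfbr1, and all other neighbours were separate. After culture the order was Thbs1 (5631), Tgfbi (3389), Tgfb1 (1291), Tgfbr1 (884), Skil (874), Tgfbr2 (609), Smad7 (359), Smad3 (292), Tgfb3 (28.6) and Tgfb2 (27.2). Overlapping neighbours were then Thbs1 and Tgfbi, Tgfb1 and Tgfbr1, Tgfbr1 and Skil, and Tgfb3 and Tgfb2. The mean of Tgfbr1 thus stood below those of Tgfbr2 and Smad7 before culture and above both after it. The order depended in part on the length used. With the longest transcript in place of all exons, Tgfbi (8741 per kb) stood above Thbs1 (7880) before culture, and after culture Skil (1262) stood above Tgfbr1 (1003) and Tgfb2 (30.8) above Tgfb3 (28.6). Tgfb1, at 4936 per kb before and 2529 after culture, kept its place.

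**Figure D3:**
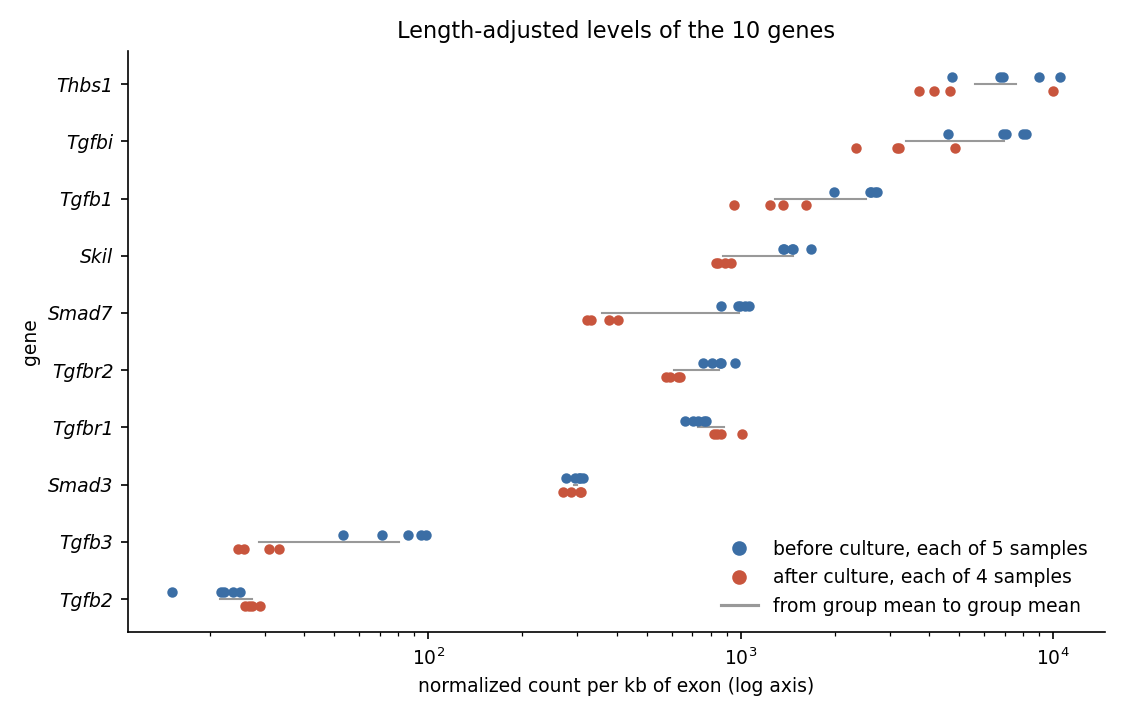
Normalized count per kb of exon (horizontal log axis) of the 10 genes in each of 5 samples before culture (blue, upper row of each gene) and 4 after culture (red, lower row), with a line between the group means. Thbs1 and Tgfbi, both secreted proteins, are highest in both groups, and Tgfb2 and Tgfb3 are lowest.

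Around these 10 genes, 134 of 138 other genes on 8 lists of the pathway and its relatives were tested. Of these, 38 were higher, 65 lower and 31 did not pass, so 76.9% changed against 68.8% of all tested genes, and their median log2 fold change was −0.21. By direction, 34.2% of all tested genes were higher and 34.6% lower, the shares that each list's counts below stand beside. The lists were drawn up with earlier results of these data known, so their shares and medians are description only. Genes named from them passed the test, averaged at least 100 over all samples and had groups that did not overlap, unless said otherwise. Of the genes named from the lists, Furin, Fbn1, Acvrl1, Eng, Sin3a, Tgif2, Nedd4l, Wwp1, Ccn2, Spsb1, Junb, Tgm2, Cd9, P2ry12, Fst, Bmp6 and Itgav have exons overlapped by a gene on the other strand, and Tgfbr3 by one on its own strand, so part of their reads may belong to that gene.

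Latency and activation genes moved both ways, with 5 of 18 higher, 8 lower and a median log2 fold change of −0.08. With the GC and length correction 5 were lower and the median was 0.06. Itgb8, the β subunit of an integrin that frees latent TGF-β, rose from 154 ± 39.1 (SD, n = 5) to 2161 ± 668 (SD, n = 4), with a log2 change of 3.78 ± 0.211 (SE) and a limma adjusted p of 3.24e-09. The thrombospondin receptor Cd36 rose from 8287 ± 1451 to 23421 ± 4202, and the integrin subunit Itgb1 (0.68) and the plasminogen activator Plau (1.09) rose on the log2 scale. Itgav, the α subunit that pairs with Itgb8, was higher by 0.27 (limma adjusted p = 0.0117) with overlapping groups, and by 0.03 (limma adjusted p = 0.771) with the GC and length correction. In the other direction, Furin, the protease that cleaves the TGF-β propeptide, fell from 24200 ± 3535 to 6087 ± 923 (log2 fold change −1.99, limma adjusted p = 1.32e-08). Ltbp4, a latent TGF-β binding protein, fell by 3.11 on the log2 scale and Fbn1, the microfibril protein that anchors such complexes, by 1.65. Of the 2 cell-surface tethers of latent TGF-β1, Lrrc32 (GARP) fell from 1385 ± 114 to 687 ± 194 (−1.05). Nrros, the tether of myeloid cells, was at 6143 ± 285 and 4843 ± 1085 with overlapping groups (−0.37, limma adjusted p = 0.0196, and −0.10, limma adjusted p = 0.415, with the GC and length correction).

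Among receptors and co-receptors, 3 of 12 were higher and 7 lower, with a median log2 fold change of −0.33. Acvrl1, the type I receptor ALK1 of endothelium, fell from 6785 ± 685 to 754 ± 72.2, or by 3.17 on the log2 scale (limma adjusted p = 8.94e-12). Its co-receptor Eng (endoglin) fell by 1.49, betaglycan (Tgfbr3) by 1.80 and the pseudoreceptor Bambi by 1.90 on the log2 scale. The co-receptor Cd109, which antagonizes TGF-β signalling, rose from 80.1 ± 12.3 to 330 ± 76.1 (log2 fold change 2.01), and the endosomal SMAD anchor Zfyve16 rose by 0.66.

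Of 14 SMADs and nuclear cofactors tested, 2 were higher (4 with the GC and length correction) and 6 lower, with a median log2 fold change of −0.08. Smad6, the other inhibitory SMAD, fell from 839 ± 150 to 250.5 ± 39.5 (−1.74, limma adjusted p = 1.37e-07), as Smad7 did. The corepressor Ski, the relative of Skil, fell from 8047 ± 819 to 4120 ± 452 (−0.97), and Tgif1 (−0.69) and Tgif2 (−1.24) fell as well, although 22.4% of the 50-base windows of Tgif2 also occur in other genes. The ubiquitin ligase Trim33 (0.64) and the corepressor scaffold Sin3a (0.29) rose. Of 17 genes of SMAD turnover, 8 were higher, 2 lower and 7 did not pass (median 0.16). Smurf1, a ubiquitin ligase that SMAD7 brings to the receptor, rose from 2369 ± 86.6 to 4842 ± 107 (1.03, limma adjusted p = 5.75e-09), and Nedd4l, a ligase that marks activated SMADs, from 1343 ± 63.9 to 2750 ± 120 (1.03). Usp11, a deubiquitinase, rose by 0.96 and the ligase Wwp1 by 0.66 on the log2 scale. With the GC and length correction Wwp1 was at 0.16 (limma adjusted p = 0.152). Pmepa1, a target gene that sequesters SMADs and helps to degrade the receptor, fell from 3123 ± 508 to 1126 ± 57.6 (−1.46).

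In the non-SMAD branch, 6 of 15 genes were higher and 5 lower (median 0.09). The ubiquitin ligase Traf6 (0.88), Pik3r1 (0.92), Tab2 (0.31) and Rock1 (0.28) rose on the log2 scale, and Traf4 (−2.49), the p38 kinases' activators Map2k6 (−2.41) and Map2k3 (−1.13), and the polarity protein Pard6a (−1.48) fell. After the GC and length correction the list's median was −0.23, 8 genes were lower and Rock1 was at −0.09.

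Genes that TGF-β induces in several cell types were lower in 13 of 20 cases and higher in 6, with a median log2 fold change of −0.97. The transcription factor Junb fell from 54663 ± 6742 to 6615 ± 735 (−3.04, limma adjusted p = 5.62e-11), Col1a1 by 2.74, the inhibitor of differentiation Id1 by 2.15 and the transglutaminase Tgm2 by 1.84. Against this direction the cell cycle inhibitor Cdkn2b rose from 37.8 ± 9.99 to 396 ± 81.8 (3.37, limma adjusted p = 8.69e-09), and the matrix protein Ccn2 (1.61), Spsb1 (1.17) and the kinase Nuak1 (1.16) rose too. Of genes induced by TGF-β in leukocytes, 14 of 19 were lower, Tgfbi among them, and 4 higher (median −0.87). Itgae fell by 3.41 on the log2 scale, P2ry12 by 2.85, the Langerhans cell lectin Cd207 by 2.15, and the adhesion molecule Epcam fell by 1.83, whereas Id2 (0.77) and Cd9 (0.36) rose. With the GC and length correction Cd9 was at 0.10 (limma adjusted p = 0.223). Itgae is also a cDC1 marker and the antigen used for isolation, Col1a1 a fibroblast marker and Epcam an epithelial marker on the lists used here.

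On the list of activins, BMPs and GDFs, with their receptors, antagonists and associated proteins, 4 of 20 genes were higher and 11 lower (median −0.54). The BMP antagonist Grem1 rose from 17.5 ± 6.43 to 364 ± 162 (4.29, limma adjusted p = 1.06e-07), the activin subunit Inhba from 138 ± 86.2 to 526 ± 135 (2.12), and the activin antagonist Fst from 81.5 ± 34.7 to 193 ± 60.0 (1.30). Bmp6 fell from 780 ± 225 to 78.8 ± 23.7 (−3.29), Gdf15 by 1.90, the procollagen protease Bmp1 by 0.97 and the BMP type II receptor Bmpr2 by 0.62 on the log2 scale.

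**Figure D4:**
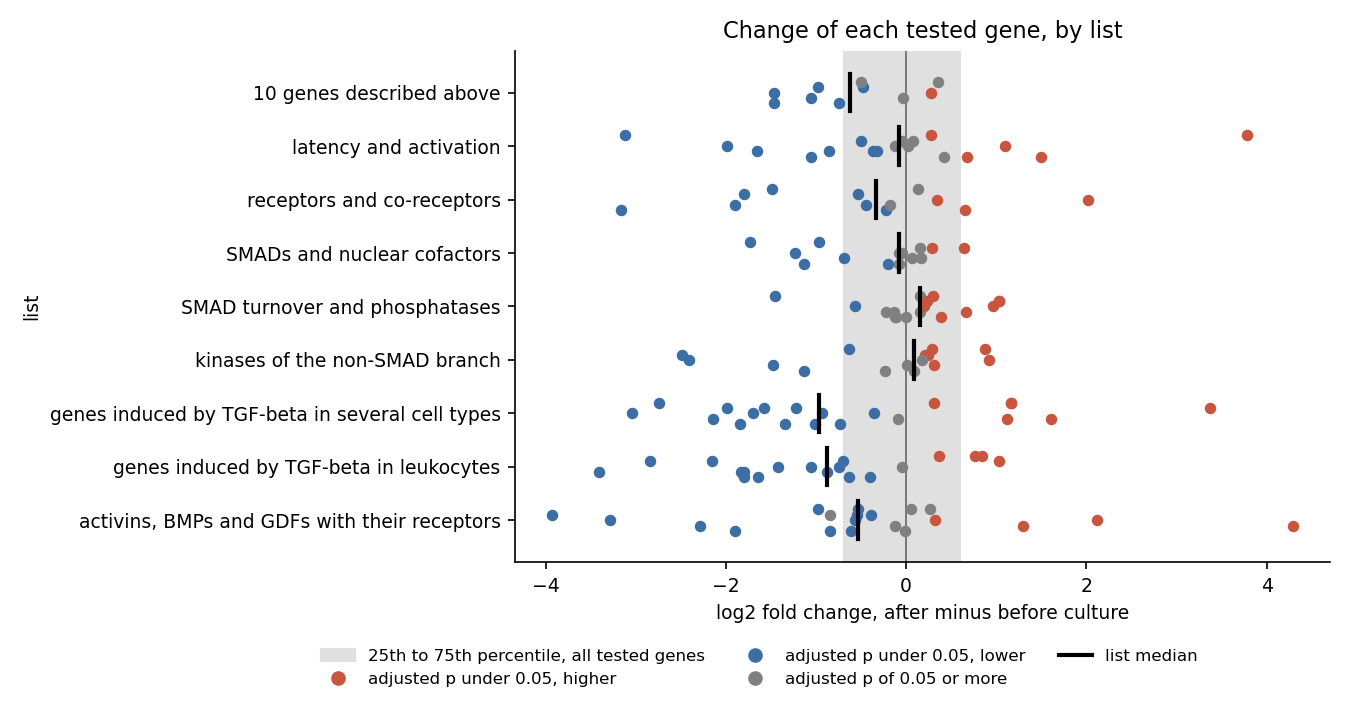
Log2 fold change after minus before culture (horizontal axis) of each tested gene on the list of 10 genes and the 8 pathway lists, in red where higher and blue where lower at a limma adjusted p under 0.05 and grey otherwise, with a black bar at each list's median. Medians are lowest for the 2 lists of induced genes (−0.97 and −0.87), and the grey band spans the middle 50% of all tested genes.

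Markers of other cells moved with or against several of these genes across samples. The summed normalized count of 10 monocyte and interstitial macrophage markers was 53198, 58572, 62365, 34953 and 51307 before culture and 33065, 47557, 22157 and 36228 after, with 1 of 10 markers higher, 5 lower and none at 0 in a whole group. Replicate 4 before culture, the lowest of its group in this sum, was also the lowest of its group in Tgfb1, Thbs1 and Tgfbi. Replicate 2 after culture was the highest of its group in the sum and in these 3 genes, and replicate 3 the lowest. At similar sums of 34953 in replicate 4 before and 36228 in replicate 4 after culture, Tgfb1 was at 10035 and 6870, Tgfbi at 17365 and 11882, and Thbs1 at 28844 and 25138. At sums of 51307 in replicate 5 before and 47557 in replicate 2 after culture, Tgfb1 was at 13527 and 8127 and Tgfbi at 30271 and 18340, whereas Thbs1 was at 54709 and 60730, higher after culture. The same samples were lowest before, highest after and lowest after culture in the marker sums of type 2 conventional dendritic cells (19661, 29746 and 16649) and of neutrophils (14298, 1902 and 932). They also stood apart on the second principal component over all genes. Pearson's r of deviations from the group means for Tgfb1, Thbs1 and Tgfbi was 0.95, 0.82 and 0.94 with the monocyte and macrophage sum. With T cell markers it was −0.93, −0.86 and −0.95, and with alveolar epithelial markers −0.90, −0.66 and −0.86. The part of any of these cells in the changes of Tgfb1, Thbs1 and Tgfbi was not tested. Of the 7 markers of type 2 conventional dendritic cells, 2 were higher and 4 lower after culture, so their sum hides opposite changes. The myeloid receptor Csf1r, the most abundant of the 10 markers, was at 11801 ± 2414 before and 14883 ± 3908 after culture (limma adjusted p = 0.153), so these markers did not all move one way. Similar sums therefore need not mean similar numbers of these cells. The groups did not overlap in Tgfb1, so its order at similar sums was fixed beforehand. In Tgfbi only replicate 4 before culture (17365) against replicate 2 after culture (18340) goes the other way. Neither Tgfbi pair above is that one, so their order was fixed as well.

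Structural cells were also read in the samples. The sum of 9 fibroblast markers ran from 16045 to 29202 before and from 2351 to 4635 after culture, that of 9 endothelial markers from 30748 to 44943 and from 3463 to 4628, and all 18 of these markers were lower after culture. Fibroblasts are known sources of Tgfb3, Fbn1 and Col1a1, and endothelium of Acvrl1 and Eng. Sums of 10 alveolar epithelial markers were 25076 to 41519 before and 4570 to 8419 after, those of 9 alveolar macrophage markers 17810 to 26567 and 8655 to 11779, and those of 8 neutrophil markers 14298 to 25015 and 932 to 1902, with Ly6g at 0 in every sample after culture. Of the 9 alveolar macrophage markers, 1 was higher, 6 were lower and 2 did not pass (log2 fold change −5.96 to 1.87). Platelets store TGF-β1 and thrombospondin-1, and 9 platelet markers summed to 503 to 628 before and 1083 to 1757 after culture, the highest being replicate 2 after culture, which was also the highest of its group in Thbs1. The platelet markers did not move as one: of 7 tested, 3 were higher, 3 lower and 1 did not pass (log2 fold change −1.50 to 3.30). Pf4 was the most abundant of them. T cell markers summed to 6000 to 6825 and 5506 to 6841. B cell markers summed to 8284 to 12283 before and 6115 to 8556 after. Markers of type 2 conventional dendritic cells summed to 19661 to 27258 before and 16649 to 29746 after. These overlapping sums do not mean that the dendritic cell markers were unchanged. Of 7 tested, 2 were higher, 4 lower and 1 did not pass (log2 fold change −6.31 to 2.70). Sirpa was the most abundant of them. The 9 cDC1 markers summed to 133708 to 161311 before and 17910 to 19908 after culture. The part of these cells in any of the changes was not tested.

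**Figure D5:**
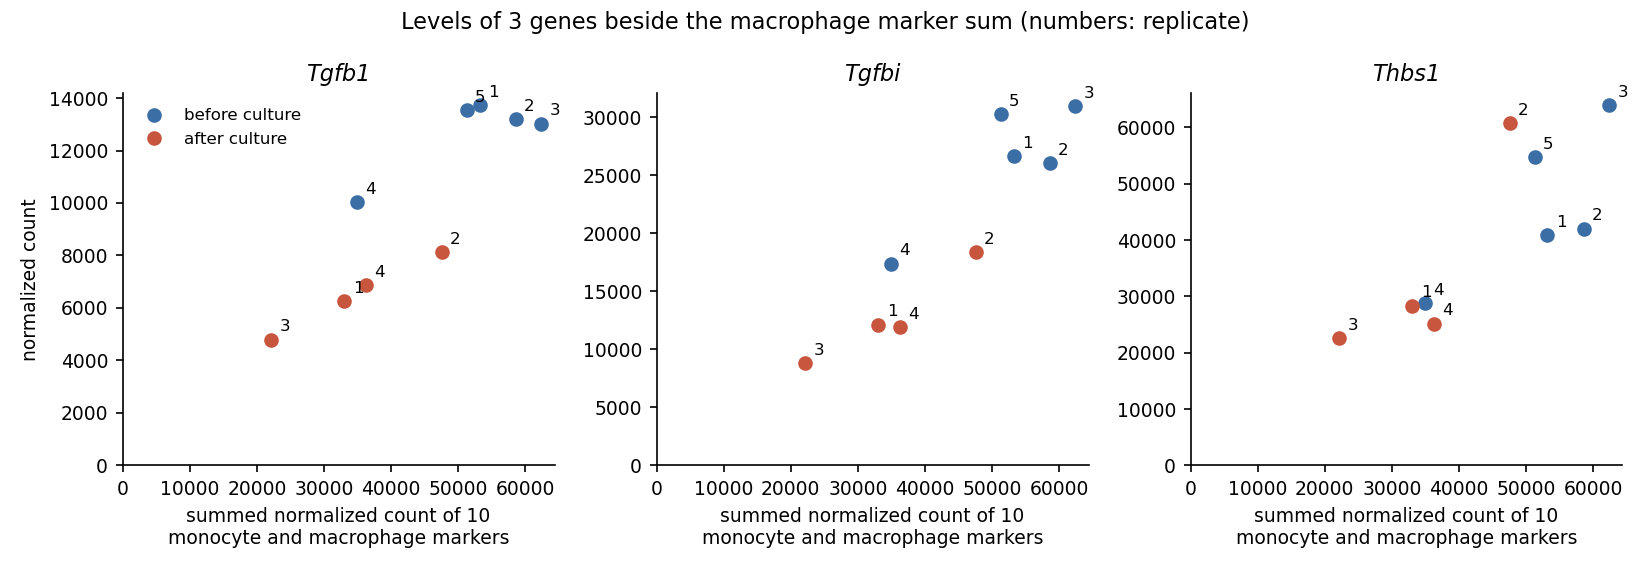
Normalized counts (vertical axis) of Tgfb1, Tgfbi and Thbs1 against the summed normalized count of 10 monocyte and macrophage markers (horizontal axis) in the 5 samples before (blue) and 4 after culture (red), numbered by replicate. Replicate 4 before and replicate 3 after culture are lowest of their groups in all 3 genes and in the sum. Tgfb1 does not overlap between groups, so its order at similar sums was fixed beforehand. The part of these cells in the changes was not tested.

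The genes with the pattern most like each member over the 9 samples were sought among 11776 genes with a mean of at least 100, by Pearson's r of log2 levels. With groups this far apart, r of levels mostly reflects the difference between groups. By either measure below, each r is the highest in a search of 11776 genes over 9 samples. A high value is therefore no finding in itself, and no p is attached to it. The nearest were Pigt for Tgfb1 (r = 0.996), Ppp1r15a for Smad7 (0.996), Pde12 for Skil (0.997), Fermt3 for Tgfbi (0.995), Nol4l for Tgfb3 (0.993), Vmac for Tgfbr2 (0.992), Kifap3 for Tgfbr1 (0.991), Abhd14b for Tgfb2 (0.976), Tomm40 for Thbs1 (0.958) and Trbc1 for Smad3 (0.904). After each group's mean was subtracted, the nearest by r of the deviations were Tln1 for Tgfb1 (0.993), Ptpn1 for Tgfbi (0.993), Pcm1 for Skil (0.985), Igsf3 for Tgfb2 (0.985), Vmac for Tgfbr2 (0.981), Armcx3 for Thbs1 (0.981), Kifap3 for Tgfbr1 (0.974), Aldoc for Tgfb3 (0.965), Abhd10 for Smad3 (0.964) and Marcks for Smad7 (0.964). Kifap3 and Vmac were nearest to their receptor gene by both measures, which are not independent since they use the same samples.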

How the data were processed

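Total RNA of 9 samples was sequenced by a company. The label protocol speaks of lung RNA, while the cell type label gives CD103+ DCs. The table the authors deposited holds normalized counts, a signal at or above 0. The submitters' processing notes name DESeq2 and GRCm38. Aligner, counter, annotation and strand use are not given in the sources used here. Divided by the step of their column, 100% of values came out as whole reads within 1e-06, so reads could be recovered. The 3782 rows without a symbol held 3.87 to 10.9% of reads per sample and were left out.

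Genes with a mean of at least 10 were tested on log2(value + 1) with limma 3.58.1 (R 4.3.3, mean-variance trend, group as the only term), adjusted by Benjamini-Hochberg over 18202 genes at 0.05. A fold change on this scale understates the change of low genes. edgeR 4.0.16 on the recovered reads called 12562 genes and DESeq2 1.42.0 called 12663, against 12524 with limma. On counts simulated for 5 and 4 samples at a dispersion of 0.02 (18063 genes), limma recovered 98 of 100 genes changed by a log2 of 2 and 91 of 100 changed by a log2 of 1, with 2.07% of calls false (DESeq2 5.08%). At a dispersion of 0.1 (18018 genes) it recovered 96 and 25, with 1.63% false (DESeq2 17.8%). Only 200 genes were changed in each simulation, while 68.8% of tested genes changed here. These rates therefore cannot be carried over to the calls made here. Ratios were compared by exact permutation in SciPy 1.17.1. Python 3.11.15, NumPy 2.4.6, pandas 2.3.3 and matplotlib 3.10.9 were also used.

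The members and all lists were chosen with earlier results of these data known. Named are the 10 members, from each list up to 4 genes per direction with the largest change among called genes that average at least 100 and whose groups do not overlap, pathway genes set beside a member, marker genes and, per member, the gene with the highest r. The values of 1 list gene that the rule picked are not reported here. Gene positions, lengths and GC content are from GENCODE M21 (GRCm38), which may not be the authors' annotation, and promoters are from RefSeq (GRCm38.p6). Intervals are 95% confidence intervals of the fitted change. Alternatives were other pseudocounts (0.5 and 8), filters, scalings, weights, count models, replicate blocks, a GC and length correction that covers 97.5% of tested genes, and leaving out each replicate. Omitting 3 samples at once was added after seeing the data.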

Additional observations from a re-analysis of the deposited data

Results flagged for a closer look

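In 48 groups of values, a sample was singled out where its gap to the nearest other sample took most of the group's range (above Dixon's 95% critical value). Chance alone singles out about 1 in 20 such groups, and 7 of 48 were found. Among the 10 genes, Tgfb1 in replicate 4 before culture lay at 10035, below 4 samples close together, with a gap of 0.810 of the range. Thbs1 in replicate 2 after culture lay at 60730, above 3 samples close together, with a gap of 0.849 of the range. Among marker sums, replicate 4 before culture was high in alveolar epithelial markers (41519) and in T cell markers (6825). Replicate 3 after culture was high in alveolar epithelial markers (8419), replicate 2 after culture in platelet markers (1757), and replicate 4 after culture was low in alveolar macrophage markers (8655). Replicate 4 before culture and replicates 2 and 3 after culture are the 3 samples that also stood apart on the second principal component.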

How the results depend on the processing

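The falls of Tgfb1, Tgfb3, Tgfbr2, Smad7, Skil and Tgfbi kept their direction and passed the threshold under all 15 alternatives and with each replicate left out. Tgfb2 passed with upper quartile scaling (0.38), quantile normalization (0.56), sample weights (0.36) and DESeq2 (0.32), so that 2 of the 10 genes were higher there, and Thbs1 with sample weights (−0.63) and without the 3 samples chosen after seeing the data (−0.89). With the GC and length correction Tgfbr1 turned to −0.15, Smad3 to 0.25, Smad2 to −0.0247 and Rock1 to −0.0938 on the log2 scale, the log2 ratio of Tgfbr1 over Tgfbr2 differed by 0.21, and that of Smad2 over Smad3 by −0.27. The cause was not tested. The replicate block by title number drops replicate 5 before culture, which has no partner: it called 11646 genes and changed no call of the 10. Joined with the GC and length correction it gave −0.18 for Tgfbr1, 0.24 for Smad3 and −0.0698 for Rock1, with 0 of the 10 higher. A replicate block by library number, which drops replicate 2 before culture, called 12836 genes and gave −0.52 for Thbs1 (limma adjusted p = 0.00369). Deviations of same-numbered samples correlated at −0.213 to 0.0807 by title and 0.0447 to 0.349 by library number. By library number, replicate 2 before culture has no partner. Each of the other samples but replicate 5 before culture correlated best with its own number. This is a hint from the data. Since not every pair was above 0.1 and no label ties numbers to animals, the numbers were not taken to pair the samples. Leaving out 1 replicate at a time gave 1 to 2 genes higher of the 10, with log2 changes of 0.23 to 0.41 for Tgfb2, −0.82 to −0.34 for Thbs1 and −0.0588 to 0.0093 for Smad3. Over all list counts and alternatives, 379 of 384 stayed within 1.5 times. With the GC and length correction 5 latency genes were lower in place of 8, 4 SMADs and cofactors higher in place of 2, and 8 kinases lower in place of 5. Of 59 list genes that the naming rule picked, 53 kept direction and call under every alternative. Depth limits Tgfb2 most, at 49 reads in its lowest sample.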
